A study of Mus musculus with 6 samples.

Results

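The RANKL, osteoprotegerin and CSF1 axis was examined through 7 genes chosen by name, Tnfsf11, Tnfrsf11a, Tnfrsf11b, Csf1, Csf1r, Il34 and Traf6, among the 17830 genes of the deposited count table. All 7 were found in the table and all 7 were among the 13484 genes that passed the filter on low counts. RNA was sequenced in 6 libraries whose labels give osteoblast as the cell type and skull bone as the tissue, from mice that were 6 months old by the series description. The 3 control libraries came from mOCN-Cre; Ai9 mice and the 3 APPswe libraries from TgAPPswemOCN-Cre; Ai9 mice, so both groups carried the Cre knock-in and the reporter and differed in the human APP transgene with the Swedish mutation. Cre is read from the endogenous osteocalcin gene (Bglap), Ai9 is a tdTomato reporter switched on by Cre, and the transgene is held silent by a stop cassette until then. By the growth and extraction protocols of the samples, cells grew out of calvarial fragments in culture and were sorted for tdTomato. The labels do not say whether the libraries of a group came from separate mice or cultures, so the p-values measure the spread between these libraries, which may be technical.

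Osteoclasts, the cells that resorb bone, form from precursors of the monocyte and macrophage lineage. CSF1, or its alternative IL-34, binds the receptor CSF1R and keeps these precursors alive and dividing, while RANKL (Tnfsf11), a membrane or shed cytokine of osteoblast-lineage and stromal cells, binds RANK (Tnfrsf11a) and drives them to become osteoclasts through the adaptor TRAF6. Osteoprotegerin (Tnfrsf11b) is a secreted decoy receptor that binds RANKL and keeps it from RANK, so the balance of RANKL and osteoprotegerin is a classical measure of the osteoclast-forming activity of osteoblast cultures.

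In the APPswe libraries RANKL rose 6.09-fold, from 1.36 ± 0.290 to 8.29 ± 0.570 CPM (SD, n = 3 each), where CPM is the count of a gene scaled to the TMM-normalized library size. Osteoprotegerin fell from 71.8 ± 48.8 to 15.2 ± 0.608 CPM (SD, n = 3 each), but 1 control library was already at the APPswe level. Csf1 fell from 1051 ± 83.8 to 754 ± 29.5 CPM (SD, n = 3 each). The differences in Il34, Csf1r, Tnfrsf11a and Traf6 did not pass the test with all 6 libraries. Calls rest on edgeR's quasi-likelihood test and required a Benjamini-Hochberg adjusted p over all genes tested of 0.05 or less together with a log2 fold change of 1 or more in either direction. By this rule 2 of the 7 genes were called, against 7.34% of all genes tested, 1 of them higher, against 3.74%, and 1 lower, against 3.60%. By the adjusted p alone, 1 passed as higher and 2 as lower, against 10.5% and 12.0% of all genes tested. Without control replicate 2, a library that stood apart, 5 of the 7 passed the adjusted p, against 48.3% of the genes tested in that fit, and 2 were called, against 11.5%. With all libraries the median log2 fold change was -0.15 over the 7 genes and -0.0033 over all genes tested.

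Total counts ranged from 17263757 to 18398392, at which 3 counts correspond to between 0.167 and 0.173 CPM, a floor that covers counting error only. Control replicate 2 stood apart from the other control libraries. Its counts differed from those of control replicates 1 and 3 by a chi-square per degree of freedom of 72.9 and 77.2, against 5.94 between those 2 libraries. A set of 4 Y-linked genes (Uty, Kdm5d, Ddx3y, Eif2s3y) summed to 2 counts in it and to at least 2257 in every other library, although the mice are described as male. Bglap, from which Cre is read, was nearly absent from it, at 1 count against 115 to 204 in the others. The median over 12 osteoblast markers was 1.91 CPM in it, 18.5 and 19.2 CPM in control replicates 1 and 3, and between 22.1 and 26.7 CPM in the APPswe libraries. The result for each of the 7 genes is therefore also given without this library. The endogenous App gene lay at 983 to 1287 CPM in the control and 1015 to 1048 CPM in the APPswe group, and since transgene reads were not counted separately it does not check the genotype.

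The 250 bases upstream of the RefSeq start are shown for the called member Tnfsf11 and for Csf1, whose groups also did not overlap, as the stretches in which sequence elements were looked for. Of the 6 members looked up, 4 had such a window in the RefSeq table (GRCm38.p6). In the 2 windows, which lie on the minus strand at chr14:78308044-78308293 and chr3:107760470-107760719 and are written 5′ to 3′, capitals mark matches on either strand to any of 7 motifs.
Tnfsf11: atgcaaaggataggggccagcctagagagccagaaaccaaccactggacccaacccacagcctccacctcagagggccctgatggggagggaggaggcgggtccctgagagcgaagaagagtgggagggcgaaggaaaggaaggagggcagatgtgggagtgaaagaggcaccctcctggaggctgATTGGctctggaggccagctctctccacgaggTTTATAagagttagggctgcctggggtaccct
Csf1: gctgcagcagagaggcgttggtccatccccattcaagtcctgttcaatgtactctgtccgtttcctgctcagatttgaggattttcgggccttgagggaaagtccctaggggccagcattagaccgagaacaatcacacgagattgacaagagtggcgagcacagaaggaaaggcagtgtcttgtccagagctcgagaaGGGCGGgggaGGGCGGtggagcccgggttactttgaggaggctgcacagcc
The motifs were a RUNX core (TGTGGT), AP-1 (TGANTCA), a cAMP response element (TGACGTCA), the GC box (GGGCGG), the CCAAT box (CCAAT), the TATA box (TATAAA) and a TCF/LEF motif (CTTTGAT), none of which contains another. The Tnfsf11 window held 1 CCAAT box and 1 TATA box in reverse complement, as ATTGG beginning 64 bases and TTTATA beginning 32 bases before the start. A CCAAT box is found in 33.8% and a TATA box in 12.4% of the 32851 RefSeq windows of this length. The Csf1 window held 2 GC boxes, an element in 32.7% of windows, and the Tnfrsf11a window held 4. The RUNX core was found in the Traf6 window alone of the 4, and in 14.0% of all windows. AP-1, cAMP response and TCF/LEF motifs were in none of the 4 windows and in 6.75%, 1.55% and 3.21% of all. These matches are letters in a short window and were not measured as binding.

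Tnfsf11 (NCBI gene 21943), which encodes RANKL, spans chr14:78277445-78308043 on the minus strand of GRCm38, with 1 annotated transcript in GENCODE M21. In replicates 1, 2 and 3 its reads numbered 20, 22 and 30 in the control group and 149, 138 and 157 in the APPswe group. These were 1.15, 1.24 and 1.69 CPM against 8.35, 7.69 and 8.82 CPM. All APPswe libraries lay above all control libraries, which held in that direction for 22.8% of all genes tested, and control replicate 2 lay between the other controls. The log2 fold change was 2.60 (standard error 0.20, 95% interval 2.12 to 3.08), and the edgeR adjusted p was 0.000811. Without control replicate 2 it was 2.54 (edgeR adjusted p = 1.88e-06), in a fit that called 4.87% of genes higher. Tnfsf11 was called in each of the 15 refits by another tool, filter, scaling, covariate, unit or subset of libraries. Within the libraries whose names carry a dash the difference in mean log2 CPM was 2.78 (2 control, 1 APPswe), and within the remaining libraries it was 2.26 (1 control, 2 APPswe). Even in the APPswe libraries RANKL was the lowest of the 7 genes per length of transcript, at 4.30 ± 0.293 FPKM (SD, n = 3).

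RANKL is also made by lymphocytes. Of the 6 T cell markers, Cd3g and Cd8a had at most 3 counts in any library and Cd3e was not in the table, while the summed list, most of it Cd28, lay at 35.7 to 45.2 CPM in the control and 11.9 to 13.5 CPM in the APPswe group. Of the B cell markers, none of which passed the filter on low counts, Cd79a had at most 4 counts in any library. Cd79b had 2, 6 and 1 counts in control and 15, 8 and 14 in APPswe replicates. It was higher in every APPswe library, as were Tnfsf11 and 22.8% of all genes tested. Their part in the level of Tnfsf11 was not tested.

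Tnfrsf11b (NCBI gene 18383), which encodes osteoprotegerin, spans chr15:54250619-54278484 on the minus strand. Its counts in replicates 1, 2 and 3 were 1712, 275 and 1793 for control and 273, 284 and 260 for APPswe. In CPM these were 98.9, 15.5 and 101 against 15.3, 15.8 and 14.6. Control replicates 1 and 3 stood far above every other library, and control replicate 2 lay inside the APPswe range, so the groups overlapped. The log2 fold change over all libraries was -2.24 (standard error 0.64, 95% interval -3.75 to -0.72, edgeR adjusted p = 0.0471). Without control replicate 2 it was -2.71 (standard error 0.074), with an edgeR adjusted p of 2.11e-09. In that fit 6.58% of genes were called lower. The call was lost in each of the 5 other fits that left out 1 library, with edgeR adjusted p-values between 0.114 and 0.155. It was also lost with the replicate number as a block (log2 fold change -1.89, edgeR adjusted p = 0.129) and with the style of the library name as a covariate (-2.33, edgeR adjusted p = 0.0797). Within the dash-named libraries the difference was -1.35, and within the remaining libraries it was -2.73.

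The sum of the endothelial markers and Dmp1 were also highest in control replicates 1 and 3. The 4 endothelial markers (Pecam1, Cdh5, Kdr and Tek) summed to 121 and 129.7 CPM in control replicates 1 and 3, to 26.6 CPM in control replicate 2 and to at most 9.50 CPM in any APPswe library. Pecam1 and Cdh5 made up most of the sum in control replicates 1 and 3, whereas Kdr was highest in control replicate 2, at 25.5 CPM against 10.9 and 12.6 CPM in control replicates 1 and 3. Dmp1, an osteocyte matrix gene, was at 15.1 and 14.3 CPM in control replicates 1 and 3, at 0.112 CPM in control replicate 2 and at most at 0.891 CPM in APPswe libraries. It is 1 of the 12 osteoblast markers, which did not move together and had a median log2 fold change of 0.051. Bglap, Bglap2, Ibsp and Phex were also highest in control replicates 1 and 3. Alpl, Sp7, Runx2, Pth1r and Dlx5 were highest in the APPswe libraries, and Col1a1 and Col1a2 in control replicate 2. The part of the endothelial markers and Dmp1 in the level of Tnfrsf11b was not tested, and in bulk RNA fewer cells of a type and less RNA per cell cannot be told apart.

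**Figure D1:**
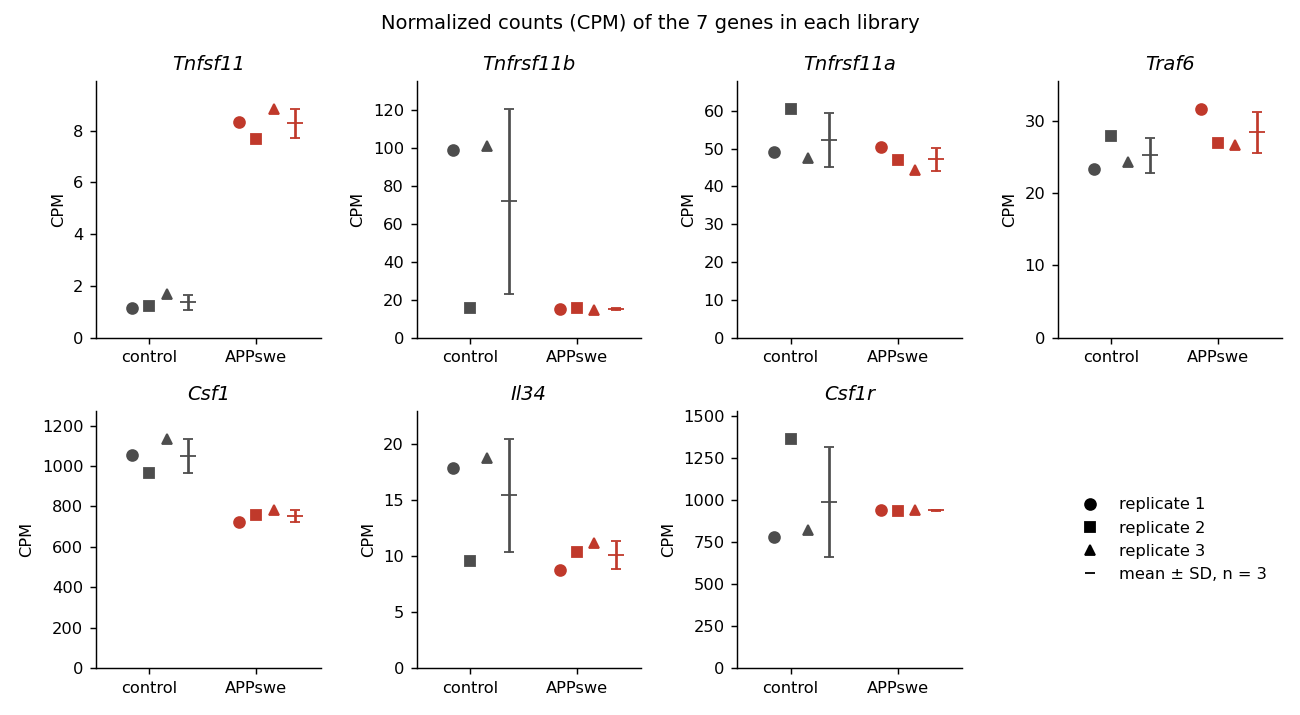
CPM of the 7 genes in each library on linear axes from 0, with control in grey and APPswe in red, marker shape for the replicate, and the mean ± SD (n = 3) beside the points. Tnfsf11 was at most at 1.69 CPM in control and at least at 7.69 CPM in APPswe libraries, while control replicate 2 sat with the APPswe libraries for Tnfrsf11b and Il34 and above all others for Csf1r.

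Csf1 (NCBI gene 12977, chr3:107741048-107760469, minus strand), the main survival factor of macrophages, was counted 18238, 17183 and 20083 times in control and 12884, 13633 and 13891 times in APPswe replicates 1, 2 and 3. In CPM these were 1053, 966 and 1133 against 722, 759.5 and 781. Every APPswe library lay below every control library, which held in that direction for 22.2% of all genes tested. The log2 fold change was -0.48 (standard error 0.088, 95% interval -0.69 to -0.27, edgeR adjusted p = 0.0116), so it passed the adjusted p and not the limit on the fold. It was -0.53 without control replicate 2 (edgeR adjusted p = 4.20e-05). Leaving out any 1 APPswe library moved the edgeR adjusted p to between 0.0557 and 0.0682.

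Il34 (NCBI gene 76527, chr8:110741829-110805924, minus strand), the other ligand of CSF1R, was far less abundant, at 17.8, 9.56 and 18.7 CPM in control and 8.75, 10.4 and 11.2 CPM in APPswe replicates 1, 2 and 3. Control replicate 2 again fell among the APPswe libraries. With all libraries the log2 fold change was -0.61 (95% interval -1.24 to 0.024, edgeR adjusted p = 0.147). Without control replicate 2 it was -0.85 (standard error 0.12, edgeR adjusted p = 0.000148). The annotated loci Gm15894 and Gm15895 overlap exons of Il34, and the strand setting of the counting is not given in the sources used here, so reads of these loci may be among its counts.

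Csf1r, the receptor for both ligands, was at 778, 1362 and 819.5 CPM in control and 939, 935 and 937 CPM in APPswe replicates 1, 2 and 3. The APPswe libraries were nearly equal, control replicate 2 was the highest of all, and the other controls were the lowest. The log2 fold change was -0.074 (95% interval -0.58 to 0.43, edgeR adjusted p = 0.832). Its sign turned without control replicate 2, to 0.23 (standard error 0.056, edgeR adjusted p = 0.00556). It also lay above 0 with the name style as a covariate (0.0018) and with limma on FPKM (0.047).

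Tnfrsf11a (NCBI gene 21934, chr1:105780718-105847981, plus strand), which encodes RANK, was at 49.1, 60.6 and 47.5 CPM in control and 50.3, 47.0 and 44.2 CPM in APPswe replicates 1, 2 and 3. The groups overlapped, and control replicate 2 was again the highest. The log2 fold change was -0.15 (95% interval -0.43 to 0.13, edgeR adjusted p = 0.385), and it was -0.029 without control replicate 2 (edgeR adjusted p = 0.782). Traf6 (NCBI gene 22034, chr2:101678429-101701669, plus strand), the adaptor that couples RANK to NF-κB and MAP kinases, was at 23.3, 27.9 and 24.3 CPM in control and 31.7, 26.9 and 26.6 CPM in APPswe replicates. Its log2 fold change was 0.17 (95% interval -0.11 to 0.45, edgeR adjusted p = 0.328), and without control replicate 2 it was 0.25 (edgeR adjusted p = 0.0550). With all libraries the intervals leave out a change by the called fold, a log2 fold change of 1, for RANK, TRAF6 and CSF1R in either direction.

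**Figure D2:**
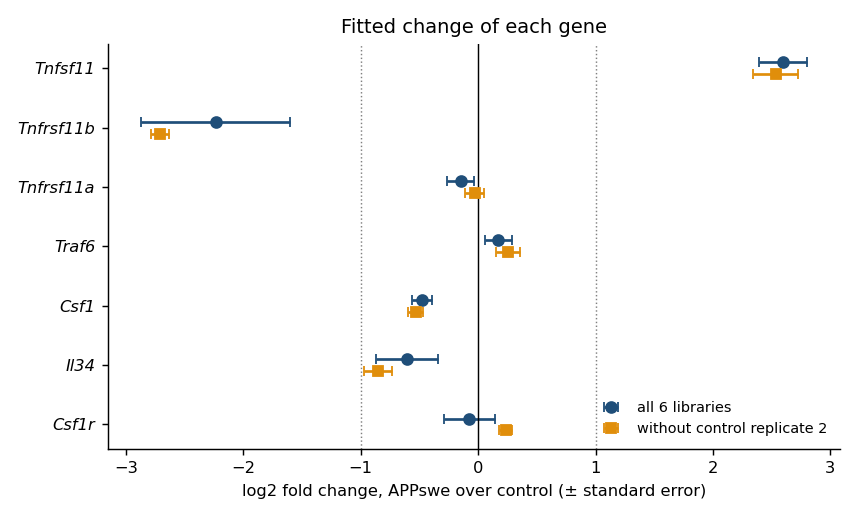
Log2 fold change of each gene in APPswe over control libraries, with its standard error, fitted by edgeR with all 6 libraries (circles) and without control replicate 2 (squares). Dotted lines mark log2 fold changes of -1 and 1, which Tnfsf11 and Tnfrsf11b exceed in both fits, at 2.60 and 2.54 and at -2.24 and -2.71.

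Per length of transcript the genes spanned a wide range. In control libraries the authors' FPKM, rounded values scaled for gene length and depth, were 280.2 ± 24.8 for Csf1, 266 ± 89.2 for Csf1r, 27.3 ± 18.5 for Tnfrsf11b, 10.1 ± 3.27 for Il34, 10.0 ± 1.48 for Tnfrsf11a, 4.25 ± 0.392 for Traf6 and 0.670 ± 0.140 for Tnfsf11 (SD, n = 3 each). The ranges of Csf1 and Csf1r overlapped, as did those of Tnfrsf11b and Il34 and those of Il34 and Tnfrsf11a. In APPswe libraries Csf1r came first at 265.6 ± 2.67 FPKM, ahead of Csf1 at 212 ± 6.90 FPKM, with no overlap (SD, n = 3 each). Tnfrsf11b, at 6.11 ± 0.265 FPKM, then ranked below Tnfrsf11a and Il34 and overlapped Il34, at 6.96 ± 0.770 FPKM (SD, n = 3 each).

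The balance of ligand and decoy was followed as the log2 ratio of Tnfsf11 to Tnfrsf11b CPM within each library, in which the library size cancels. It was -6.38, -3.61 and -5.88 in control and -0.87, -1.04 and -0.73 in APPswe replicates 1, 2 and 3. All APPswe libraries lay above all controls, although control replicate 2 lay well above the other controls. The mean was 4.41 higher in APPswe libraries on the log2 scale, with an exact two-sided permutation p of 0.1, the smallest that 3 libraries against 3 allow, and 0.25 after Benjamini-Hochberg adjustment over the 5 ratios tested. Without control replicate 2 the difference was 5.25. A ratio of CPM between genes is not a ratio of molecules, because the genes differ in length.

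Of the other ratios, only that of Csf1r to the macrophage markers also held the groups apart, by a smaller difference. The log2 ratio of Il34 to Csf1 was -5.88, -6.66 and -5.92 in control and -6.36, -6.19 and -6.12 in APPswe replicates, a difference of -0.075 (exact permutation p = 0.9) that was -0.33 without control replicate 2. The log2 ratio of RANK to its partner receptor Csf1r differed by -0.12 (exact permutation p = 0.5), with overlapping groups, and by -0.27 without control replicate 2. Tnfsf11 relative to the mean log2 CPM of the 12 osteoblast markers was at -4.85, -1.59 and -4.35 in control and at -1.61, -1.90 and -1.82 in APPswe replicates. Control replicate 2, with few counts of most of these markers, was the highest library, and the mean difference of 1.82 (exact permutation p = 0.4) became 2.83 without it. Csf1r relative to the 12 macrophage markers was at 0.41, 1.18 and 0.44 in control and at 1.28, 1.27 and 1.25 in APPswe replicates. That difference of 0.59, with all APPswe libraries above all controls, was 0.84 without control replicate 2. Its exact permutation p was 0.1, and 0.25 after Benjamini-Hochberg adjustment over the 5 ratios, as for Tnfsf11 to Tnfrsf11b.

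**Figure D3:**
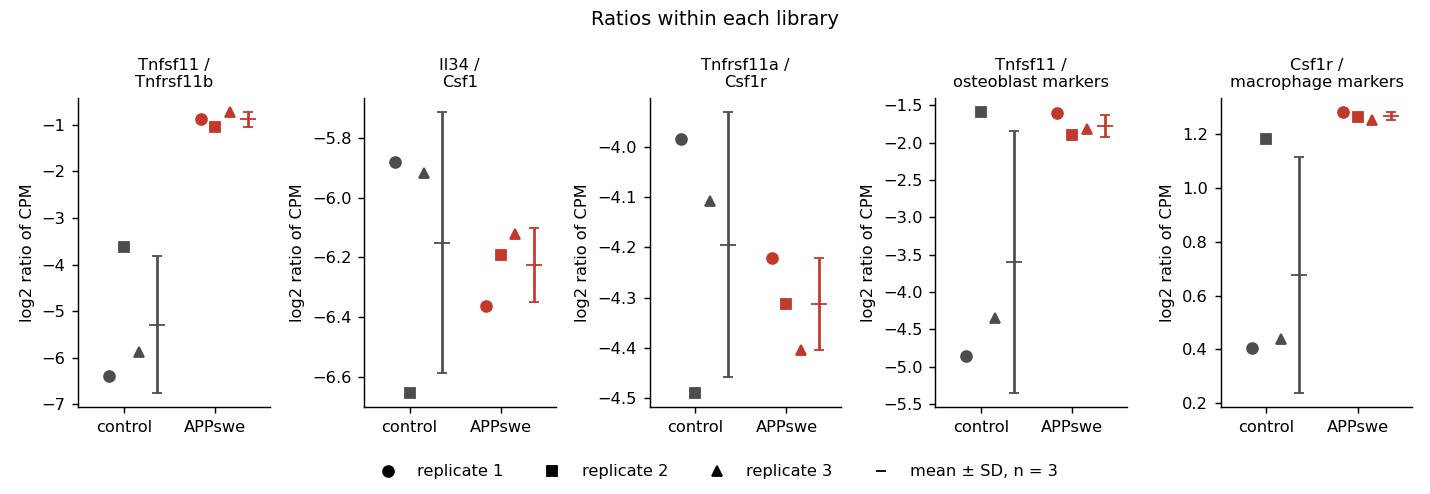
Log2 ratios of CPM within each library for 3 gene pairs and for 2 genes relative to the mean log2 CPM of a marker list, with the mean ± SD (n = 3) beside the points. The vertical axes differ between panels and do not start at 0. For Tnfsf11 over Tnfrsf11b the APPswe libraries lie between -1.04 and -0.73 and the controls between -6.38 and -3.61.

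The surrounding pathway was described with 7 lists by role, which held 78 genes, of which 76 were tested and Tnfsf10 and Siglech did not pass the filter. Of the 76, 9 were called higher and 2 lower, that is 11.8% and 2.63%, against 3.74% and 3.60% of all genes tested. By the adjusted p alone 18 passed as higher and 15 as lower, 23.7% and 19.7%, against 10.5% and 12.0% of all genes. The lists were chosen with earlier results of these data known, so these shares are descriptions. Their median log2 fold change was -0.0059. The numbers were 9 and 2 again without control replicate 2, with Ptprz1 called lower in place of Plcg2.

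Signals known to raise RANKL in stromal cells held the most called genes. Of 14 tested, 4 were called higher and 1 lower, 8 passed the adjusted p as higher and 1 as lower, and the list median was 0.84, where 3.74%, 3.60%, 10.5% and 12.0% of all genes met the same 4 conditions. Vdr, the vitamin D receptor, was at 4.45, 15.0 and 5.08 CPM in control and 45.5, 49.5 and 48.9 CPM in APPswe replicates 1, 2 and 3 (log2 fold change 2.55, edgeR adjusted p = 0.00996, and 3.33 without control replicate 2). Il1r1, the signalling receptor for interleukin-1, was at 20.2, 11.2 and 18.7 CPM against 99.1, 90.5 and 88.4 CPM (log2 fold change 2.47, edgeR adjusted p = 0.00103). The cytokine Il6 lay at 1.62 to 1.69 CPM in the control and 6.07 to 7.23 CPM in the APPswe group (log2 fold change 1.99). Ptger2, a prostaglandin E2 receptor, lay at 4.74 to 5.19 CPM in the control and 13.2 to 13.6 CPM in the APPswe group (log2 fold change 1.44). Each of these 4 was called in all 15 refits. Tnf went the other way, with 36.1, 21.4 and 45.0 CPM in control replicates and 11.8 to 14.2 CPM in the APPswe group (log2 fold change -1.40, edgeR adjusted p = 0.0131), and lost its call in the 3 fits that left out an APPswe library, with an edgeR adjusted p of up to 0.0671.

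Of the 37 transcription factors, adaptors, kinases and brakes downstream of RANK, 2 were called, or 5.41%, against 7.34% of all genes tested. By the adjusted p alone 4 of the 37 passed as higher and 8 as lower. These were 10.8% and 21.6%, against 10.5% and 12.0% of all genes tested. Among 11 transcription factors, Prdm1, which encodes a repressor that removes brakes on osteoclast formation, had a log2 fold change of 2.03 (2.60, 2.19 and 3.33 CPM against 11.2, 10.3 and 11.7 CPM), and the AP-1 subunit Fos one of 1.34 (40.4, 22.1 and 45.0 CPM against 85.2, 97.1 and 90.8 CPM). Both were called higher, though Fos lost its call without APPswe replicate 2 or 3, with an edgeR adjusted p of up to 0.0572. Nfatc1, the master transcription factor of osteoclasts, lay at 55.4 to 56.4 CPM in the control and 52.9 to 57.7 CPM in the APPswe group (log2 fold change -0.032). None of the 17 adaptors and kinases was called, and the smallest p belonged to the kinase Tec (log2 fold change -0.49, edgeR adjusted p = 0.0101). By the adjusted p alone 2 of the 17 passed as higher and 4 as lower. None of the 9 brakes on RANK signalling was called either, but 3 passed the adjusted p as lower, with the smallest p for Irf8, a factor that holds precursors back from the osteoclast fate (log2 fold change -0.65, edgeR adjusted p = 0.00314).

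Of the 7 costimulatory receptors and adaptors tested, Oscar, an osteoclast-associated receptor, was called higher, from between 0.173 and 0.675 CPM to between 3.36 and 4.38 CPM (log2 fold change 3.10). Plcg2, a phospholipase of the same signalling chain, was called lower (log2 fold change -1.08, edgeR adjusted p = 0.0104), a call lost without control replicate 2 or any APPswe library. Of 12 genes of CSF1R signalling, Socs1, an inhibitor of cytokine signalling, was called higher (log2 fold change 1.13, edgeR adjusted p = 0.0489). This call was lost without control replicate 1 or 3 or APPswe replicate 2 or 3. By the adjusted p, 2 of the 12 passed as higher and 4 as lower, against 10.5% and 12.0% of all genes tested. Among 6 further ligands and partners, Lgr4, a second receptor for RANKL, was called higher, with 17.3, 20.2 and 17.8 CPM in control and 49.0, 42.2 and 44.1 CPM in APPswe replicates (log2 fold change 1.29, edgeR adjusted p = 0.000865), and it was called in all 15 refits.

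**Figure D4:**
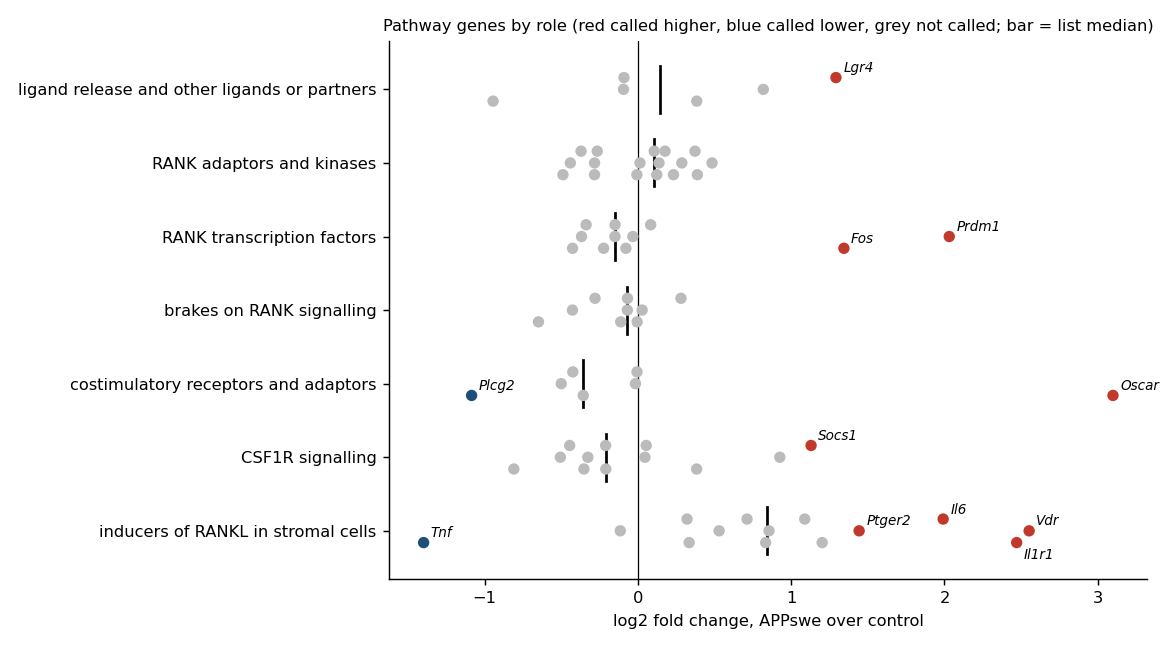
Log2 fold change of the 76 tested pathway genes by role, each point a gene, red where called higher, blue where called lower and grey where not called, with a bar at the list median. The list of RANKL inducers has its median at 0.84, and the other list medians lie between -0.36 and 0.15.

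The cells in which these genes are usually found were checked through 7 marker lists, whose counts stand against 3.74% of all genes called higher and 3.60% called lower, and 10.5% and 12.0% by the adjusted p. CSF1R and RANK are receptors of the macrophage lineage. The 12 macrophage markers summed to 16927 to 24278 CPM in the control and 11733 to 12697 CPM in the APPswe group, mostly Lyz2. The 12 osteoblast markers summed to less, at 8688 to 11477 and 7962 to 8764 CPM, mostly Col1a1 and Col1a2. Control replicate 2 had the highest osteoblast sum but the lowest osteoblast list median, at 1.91 CPM. In every library the list median was at least 406 CPM for macrophage and at most 26.7 CPM for osteoblast markers. By the adjusted p, 8 macrophage markers passed as lower and none as higher, with Cd68 at -0.98 and C1qa at -0.84 on the log2 scale, and Cd14 was called lower. Of the osteoblast markers, Sp7 was called higher and 2 passed the adjusted p as higher. The 9 osteoclast markers summed to 180 to 330.3 CPM in the control and 740.2 to 751.4 CPM in the APPswe group, with 4 of 8 tested called higher and Calcr at no more than 3 counts. Acp5, tartrate-resistant acid phosphatase, rose from at most 7.11 to at least 187 CPM, while Itgb3 lay at 22.0 to 45.2 CPM in the control and 20.7 to 20.9 CPM in the APPswe group. The 7 fibroblast and stromal markers summed to 1857 to 4273 CPM in the control and 6425 to 6611 CPM in the APPswe group. The 2 called higher were Col3a1 and Pdgfra, and Col3a1 made up most of the APPswe sum. The list median was 238 to 253 CPM in APPswe libraries, against 329, 89.0 and 334 CPM in control replicates 1, 2 and 3. Dcn, Lum and Cxcl12 were likewise lower in APPswe libraries than in control replicates 1 and 3, and higher than in control replicate 2. The 6 skeletal muscle markers summed to 0.635 to 4.16 CPM in the control and 73.0 to 79.1 CPM in the APPswe group, with all 5 tested called higher. Of the endothelial and T cell markers, Kdr and Cd28 were called lower. The part of these lists in the levels of the 7 genes was not tested, and whether the sorted cells made a transcript or other cells in the sample did cannot be told apart here.

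**Figure D5:**
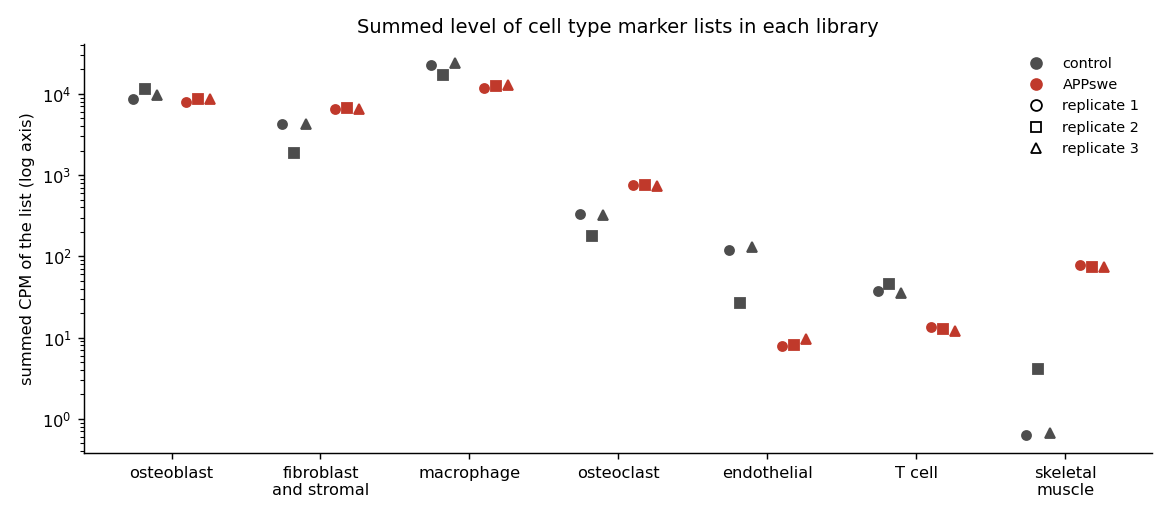
Summed CPM of 7 cell type marker lists in each library on a log axis, with control in grey, APPswe in red and marker shape for the replicate. The macrophage list was the most abundant, at 11733 CPM or more in every library. The osteoclast list, the muscle list and the fibroblast and stromal list were higher in every APPswe than in every control library.

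Genes with the profile most like that of each member were found by the mean absolute difference between log2 CPM profiles centred on their means, over the 6 libraries and 12335 other genes. For Tnfsf11 these were Treml4 (0.092), the myeloid membrane gene Ms4a4a (0.13) and the muscle gene Myl4 (0.15). For Tnfrsf11b they were LOC115488029 (0.12), the hypoxia-inducible factor Epas1 (0.12) and the secreted phospholipase Pla2g2e (0.15), with Epas1 at 119.5 and 121 CPM in control replicates 1 and 3 and at no more than 21.9 CPM in every other library. For Csf1 they were Amigo1, Akap2 and Samd4 (0.018 to 0.027), for Il34 Tnfrsf12a, Znhit6 and Pomgnt2 (0.033 to 0.052), for Csf1r Nup155, Cenpa and Anapc5 (0.025 to 0.026), for Tnfrsf11a Rap1gds1, Pabpc1 and Itsn2 (0.017 to 0.021), and for Traf6 Parp2, Cwc22 and Zswim6 (0.025 to 0.030). The distances are in log2 units, describe 6 libraries in 2 groups and carry no test.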

How the data were processed

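RNA of sorted tdTomato-positive calvarial cells was sequenced on the DNBseq platform. The authors deposited raw counts of reads for each gene. They also deposited rounded FPKM, which is blank for 397 genes in the dash-named and 716 in the remaining libraries, none of them a member. Blank cells were read as 0. The authors' own fold changes and p-values, from their comparison of the genotypes, were not used. The submitters' processing notes name GRCm38; the aligner and counter are not given in the sources used here. Groups and replicate numbers came from the sample titles.

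The test of the counts used edgeR 4.0.16 under R 4.3.3 (TMM, filterByExpr, quasi-likelihood test without a covariate, Benjamini-Hochberg adjustment over 13484 genes). The standard error is the log2 fold change over the square root of F. DESeq2 1.42.0 and limma 3.58.1 on log2(FPKM + 1) or log2(FPKM + 0.1) served as alternatives. Ratios used a prior count of 0.5 and an exact permutation test over 20 assignments (Python 3.11.15). Tested on simulated data in which 200 genes differed by 2 on the log2 scale, edgeR called 188 of them and 3 unchanged genes of 13384 tested. DESeq2 called 189 of them and 16 unchanged genes of 13481 tested. No simulated library stood apart from its group, so these rates do not cover a library like control replicate 2. Each of the 15 library pairs differed beyond sampling noise, with chi-square over degrees of freedom at 1.57 or more, so no libraries were merged. The value of 1.57 was that of APPswe replicates 2 and 3. Such a difference does not show that libraries came from separate mice or cultures. Named were the members, App and Bglap, the 3 genes of nearest profile to each member (among genes whose log2 CPM averaged 1 or more), from each pathway list the called genes, up to 4 by size of change, or the gene with the smallest p where none was called, and up to 2 genes a marker list. Tnf, Ptprz1, Nfatc1 and the markers beyond 2 a list were named after their values were seen. Other B cell markers are not reported here. The members and lists were chosen with earlier results of these data known.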

Additional observations from a re-analysis of the deposited data

How the results depend on the processing

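With each library left out in turn, 1 of the 7 genes was called higher in every fit, and between 0 and 1 lower, the 1 only without control replicate 2. None was called lower with the replicate block (0), with the library name style as a covariate (0), or with limma on log2(FPKM + 1) or log2(FPKM + 0.1) (0 each), and 2 were lower by the adjusted p alone. In those 4 fits and in the 5 other fits that left out a library, Tnfrsf11b had an unadjusted p between 0.0219 and 0.0453. Of the pathway genes, 0 to 2 were called lower with a library left out (0 without any APPswe library), 1 with either limma fit, and 15 lower and 18 higher by the adjusted p alone. The Il34 to Csf1 ratio difference lay between -0.33 and 0.060 with a library left out, and turned positive without control replicate 1 (0.060) or 3 (0.042). The other ratios kept their direction with a prior count of 2, with FPKM, with each library left out and with the replicate block, whose exact sign-flip p cannot go below 0.25.

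The replicate numbers come from the sample titles, which do not state a pairing, and were not taken as pairs. The deviations of same-numbered libraries from their group mean correlated at 0.070, -0.034 and 0.14. With 3 libraries a group these values cannot decide whether libraries were paired, so the replicate block is a block by number only. With the replicate block 384 genes were called higher and 324 lower over all genes, against 504 and 486, and the call of Tnfrsf11b was lost (log2 fold change -1.89). Of the 3 control libraries, 2 correlated best with the APPswe library of their own number. Within name styles, chosen after seeing the data, no called member changed sign. The least counted member, Tnfsf11, had at least 20 counts in every library. With a library left out, 281 to 670 genes were called higher and 230 to 905 lower, most without control replicate 2. With at least 10 counts in every library 320 and 412 were called, with limma on log2(FPKM + 1) 316 and 185, and on log2(FPKM + 0.1) 556 and 313.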
